A study of Rattus norvegicus with 9 samples.

Results

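Fabp3, Fabp4, Fabp5 and Fabp7 encode fatty acid binding proteins. They were selected on the measured level of Fabp3, which was lower in both groups transfected with Set-β than in the mCherry controls, so the Fabp3 values against mCherry below are descriptions and carry no test. Transcript clusters were taken where the array's annotation gave exactly 1 of these symbols. Of the 4 genes, 3 had a cluster (Fabp3 17802585, Fabp4 17737204 and Fabp7 17755212), out of 36685 clusters on the array, of which 18511 carried 1 symbol. Fabp5 was not matched to a cluster and is not analysed here.

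The cells were retinal ganglion cells, the neurons that send the axons of the optic nerve, purified by immunopanning from Sprague Dawley rats on postnatal day 4. The wt-SetB group was transfected with wild-type Set-β and the myr-SetB group with myr-Set-β, a form named for myristoylation, the lipid modification that tethers proteins to membranes. The mCherry group received a red fluorescent protein in place of Set-β. All 3 groups also received the pMAX-GFP plasmid, were sorted for green fluorescence and gave RNA 3 days after transfection, with 3 arrays in each group. Set binds histones as a chaperone and inhibits protein phosphatase 2A, and both Set-β forms were introduced into cells that have their own Set gene. No cluster carried the symbol Set, so these arrays cannot show the transfected gene under its own name, and groups are named as labelled. The titles call the arrays biological replicates. Whether they came from separate cultures or litters is not said, so the p-values cover only the spread of these arrays, part or all of which may be technical.

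Fatty acid binding proteins are small soluble carriers of the intracellular lipid binding protein family, which fold into a barrel around a single fatty acid or retinoid. They move fatty acids through the cytosol to membranes, mitochondria and nuclear receptors. Fabp3 is the form of heart and skeletal muscle and is also made by mature neurons. Fabp4 is the form of adipocytes and macrophages and is found in endothelial cells of small vessels. Fabp7 is the brain form, made by radial glia, astrocytes and Müller glia, the main glia of the retina.

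Promoters are shown for the genes of which the RefSeq table of assembly GRCr8 held one, Fabp3 and Fabp7, because the choice of genes rests on Fabp3 and Fabp7 gives a second promoter of the family to read it against. Each runs from 250 bases before to 50 bases after the annotated start on the plus strand, Fabp3 at chr5:147935875-147936174 and Fabp7 at chr20:37669356-37669655. Capitals mark matches to the motifs searched on both strands, other than CANNTG.
Fabp3: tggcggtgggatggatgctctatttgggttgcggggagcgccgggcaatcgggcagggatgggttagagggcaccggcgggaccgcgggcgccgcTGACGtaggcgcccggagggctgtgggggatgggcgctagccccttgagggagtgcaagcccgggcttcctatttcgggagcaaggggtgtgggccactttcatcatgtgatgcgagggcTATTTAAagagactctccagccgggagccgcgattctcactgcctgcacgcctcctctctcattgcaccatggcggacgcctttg
Fabp7: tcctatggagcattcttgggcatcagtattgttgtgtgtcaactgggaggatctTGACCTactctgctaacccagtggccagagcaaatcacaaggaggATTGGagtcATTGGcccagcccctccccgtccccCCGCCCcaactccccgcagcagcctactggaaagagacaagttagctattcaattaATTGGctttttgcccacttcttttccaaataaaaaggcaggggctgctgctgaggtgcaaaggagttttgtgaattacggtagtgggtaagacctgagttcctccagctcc
The motifs searched were 2 forms of the TATA box, TATAAA and TATTTAA. They also included CCAAT, a common element upstream of start sites, and GGGCGG, to which Sp1 binds. The others were TGACG, the core of cyclic AMP response elements, AGGTCA, to which nuclear receptors bind, and CANNTG, the E-box. In the Fabp3 promoter TATTTAA lay 35 bases and TGACG 155 bases before the start, with a CANNTG at 51 bases. In the Fabp7 promoter CCAAT was present on the minus strand (ATTGG in the letters shown) at 151, 142 and 61 bases, with GGGCGG (as CCGCCC) at 117, AGGTCA (as TGACCT) at 196 and a CANNTG at 211 bases before the start. None of these matches overlapped another. Among 33469 promoters of the same length, TATTTAA was found in 4.58%, TGACG in 21.2%, CCAAT in 37.5%, GGGCGG in 33.1%, AGGTCA in 16.2%, CANNTG in 72.1% and TATAAA in 14.2%. The base composition was 65.0% G and C for Fabp3 and 51.3% for Fabp7, against a median of 51.7% for all promoters. These are matches of letters and not known binding sites.

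All levels below are log2 values of the deposited intensities, whose median is 100 on each array. Levels were not compared between genes, since each cluster has its own probes. For a mark of background, the 1128 clusters of odorant receptors, a choice made after seeing the data, had array medians between 5.34 and 5.93 and 90th percentiles between 6.89 and 7.64. Fabp3 was above that 90th percentile on 9 of 9 arrays, Fabp4 on 2 and Fabp7 on 0.

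The arrays differed in signal range and in ganglion cell markers, and both moved in part with the groups. The signal range, taken between an array's 10th and 90th percentiles of log2 intensity, was 4.16 ± 0.0471 in wt-SetB, 4.16 ± 0.318 in myr-SetB and 4.45 ± 0.146 in mCherry (SD, n = 3). An exact two-sided permutation test gave p = 0.1 for wt-SetB against mCherry, the smallest that 3 against 3 allows, and p = 0.2 for myr-SetB against mCherry. The ganglion cell list had clusters for 12 of 12 genes, with none at or below the odorant receptor median on every array. Its mean log2 intensity was 8.41 to 8.88 in wt-SetB, 8.12 to 8.89 in myr-SetB and 8.76 to 9.50 in mCherry, with summed intensities of 5454 to 8766, 5084 to 9294 and 7762 to 13501 in the same order. Amacrine and horizontal cell markers (9 of 9 genes, 4 under the level filter) had mean log2 intensities of 6.61 to 6.75, 6.55 to 6.88 and 6.78 to 7.07 in that order. For photoreceptor and bipolar cell markers (8 of 11 genes, 6 under the filter) they were 6.27 to 6.41, 6.24 to 6.33 and 6.20 to 6.32. The part of the signal range or of any marker list in the Fabp results was not tested. In bulk RNA, fewer cells of a type and less RNA per cell cannot be told apart. Across the 18343 clusters tested, limma called 0 at an adjusted p under 0.05 in each comparison (0%). At an unadjusted p under 0.05 it gave 1308 lower (7.13%) and 557 higher (3.04%) in wt-SetB than in mCherry, 1270 lower (6.92%) and 526 higher (2.87%) in myr-SetB than in mCherry, and 104 lower and 104 higher (0.567% each) in myr-SetB than in wt-SetB. The higher share of these calls was 29.9% in wt-SetB and 29.3% in myr-SetB against mCherry, against 62.1% and 56.8% under quantile scaling and 54.5% and 57.7% under cyclic loess.

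Fabp3, the form of muscle and mature neurons, had 53.2% in wt-SetB and 44.8% in myr-SetB of its geometric mean intensity in mCherry. Its log2 intensity was 8.71, 8.52 and 8.51 on the wt-SetB arrays, 7.86, 8.64 and 8.49 on the myr-SetB arrays, and 9.47, 9.57 and 9.44 on the mCherry arrays. All 6 Set-β arrays lay below all 3 mCherry arrays, and myr-SetB replicate 1 was the lowest of the 9. On the linear scale these were intensities of 417, 367 and 365 in wt-SetB, 233, 400 and 360 in myr-SetB, and 708, 759 and 693 in mCherry. Within each array Fabp3 stood between percentiles 90.4 and 91.9 in wt-SetB, 85.6 and 91.1 in myr-SetB, and 93.8 and 95.6 in mCherry, so it was among the brighter clusters on every array.

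The group means of Fabp3 were 8.58 ± 0.11 in wt-SetB, 8.33 ± 0.41 in myr-SetB and 9.49 ± 0.07 in mCherry (SD, n = 3). Wt-SetB differed from mCherry by -0.91 ± 0.21 (SE). Myr-SetB differed from mCherry by -1.16 ± 0.21. These values chose the genes, so they describe the arrays and support nothing. Both comparisons share the mCherry arrays. Of the clusters tested, every wt-SetB array lay below every mCherry array in 26.4%, and every myr-SetB array below every mCherry array in 6.85%.

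Most tested genes were also somewhat lower in the Set-β groups under this scaling, and Fabp3 lay below that shift. The median difference of the 10714 tested clusters with 1 symbol was -0.29 in wt-SetB and -0.26 in myr-SetB, each minus mCherry. Relative to those medians Fabp3 was at -0.62 in wt-SetB and -0.90 in myr-SetB. A gene chosen for a low value lies below the median by that choice.

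**Figure D1:**
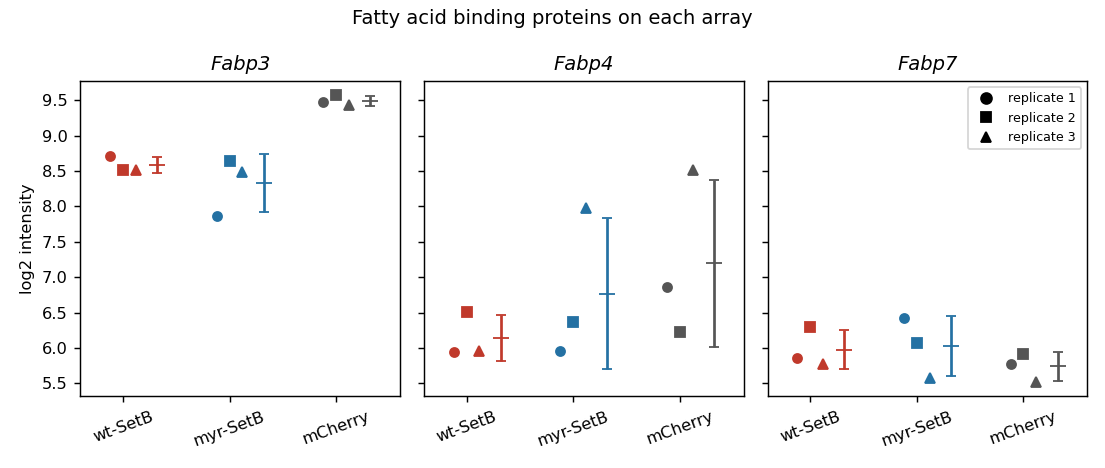
Log2 intensity of Fabp3, Fabp4 and Fabp7 on each of the 9 arrays, by group, with marker shape for the replicate number and bars for the group mean ± SD (n = 3). The 6 Set-β arrays of Fabp3 lie between 7.86 and 8.71, below the mCherry arrays at 9.44 to 9.57, whereas the groups overlap for Fabp4 and Fabp7.

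Scalings that equalise the signal range left Fabp3 lower in both Set-β groups by a smaller amount. After quantile normalization it was 8.82, 8.64 and 8.66 in wt-SetB, 8.21, 8.72 and 8.30 in myr-SetB, and 9.15, 9.50 and 9.12 in mCherry. After cyclic loess it was 8.76, 8.61 and 8.64 in wt-SetB, 8.51, 8.69 and 8.22 in myr-SetB, and 9.09, 9.49 and 9.10 in mCherry. The Set-β arrays stayed below the mCherry arrays under both. The differences from mCherry became -0.55 and -0.56 in wt-SetB, and -0.85 and -0.75 in myr-SetB, for quantile and loess in that order, against medians of single-symbol clusters of -0.11 and -0.11 in wt-SetB and -0.13 and -0.09 in myr-SetB. Leaving out 1 array at a time gave -0.97 to -0.87 in wt-SetB and -1.31 to -0.92 in myr-SetB, the last without myr-SetB replicate 1.

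**Figure D2:**
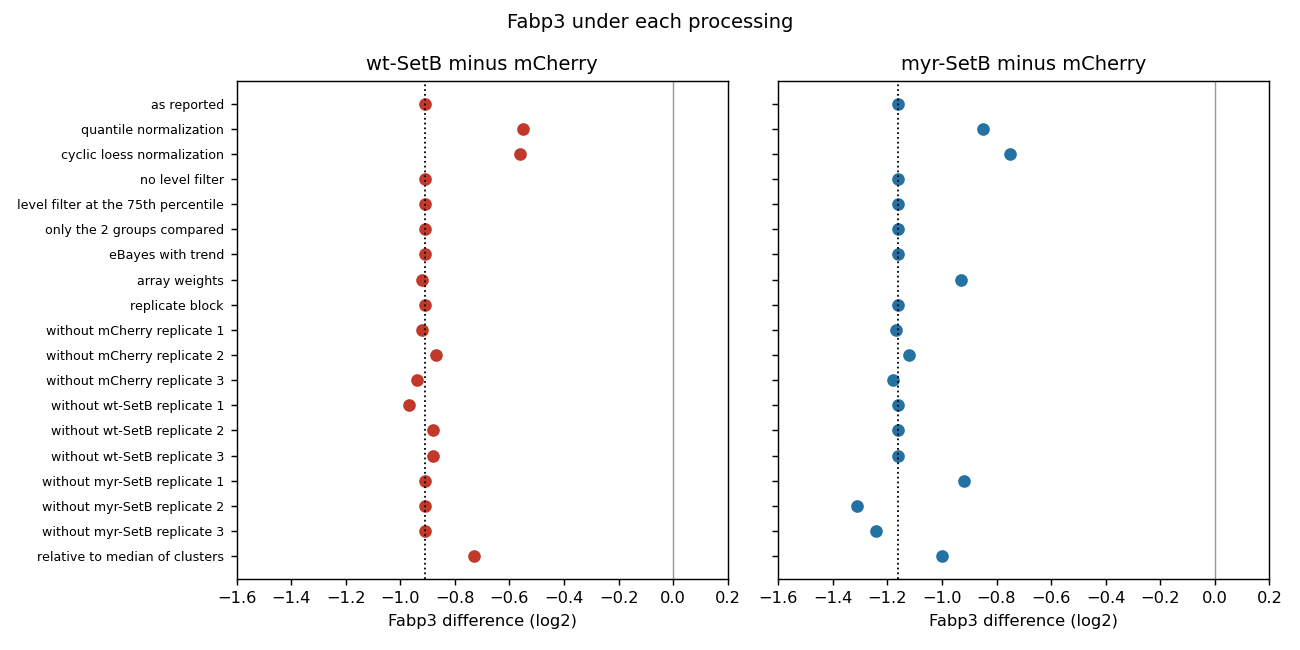
Difference of Fabp3 from mCherry in log2 units for wt-SetB (left) and myr-SetB (right), as reported (dotted line) and under each other processing. Every point lies below 0, and the points nearest to it are those of quantile (-0.55) and cyclic loess normalization (-0.56) in wt-SetB and of cyclic loess (-0.75) in myr-SetB. Fabp3 was chosen for its low value, and settings that leave the group means unchanged repeat the reported point.

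Signal range and ganglion cell markers moved with Fabp3 on some arrays and not on others. On myr-SetB replicate 1 the signal range (3.82), the marker mean (8.12) and Fabp3 (7.86) were each the lowest of the 9 arrays. On wt-SetB replicate 1 the marker mean (8.88) and Fabp3 (8.71) were the highest of their group, while the signal range (4.12) was the lowest of it. In mCherry replicate 2 the signal range was 4.29 and the ganglion cell marker mean 8.76, both the lowest of its group, while Fabp3 was 9.57, the highest. In myr-SetB replicate 3 the signal range was 4.46 and the marker mean 8.89, both the highest of its group, while Fabp3 was 8.49. Muscle markers, listed because Fabp3 is a muscle protein, had clusters for 5 of 6 genes, with Myh6 at or below the odorant receptor median on every array. Their summed intensity was 325 to 390 in wt-SetB, 365 to 395 in myr-SetB and 324 to 389 in mCherry, so these groups overlapped.

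The forms of Set-β were compared directly, a contrast that did not enter the choice of genes. Fabp3 was 8.33 ± 0.41 in myr-SetB and 8.58 ± 0.11 in wt-SetB (SD, n = 3), a difference of -0.25 ± 0.21 (SE) with a 95% interval of -0.73 to 0.24 and a limma adjusted p of 1. The arrays overlapped, and the interval covers myr-SetB being lower by 0.73 as well as higher by 0.24. Without myr-SetB replicate 1 the difference was -0.01.

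Fabp4, the adipocyte and macrophage form, varied widely between arrays of the same group. Its log2 intensity was 5.94, 6.51 and 5.96 on the wt-SetB arrays, 5.96, 6.37 and 7.98 on the myr-SetB arrays, and 6.86, 6.22 and 8.51 on the mCherry arrays. The high values were those of replicate 3 in myr-SetB and in mCherry, while replicate 3 of wt-SetB was at 5.96. The cluster spanned 2.57 log2 units over the 9 arrays, against 1.70 for Fabp3 and 0.91 for Fabp7. Its mean of 6.70 over all arrays passed the level filter of 6.65 through its high arrays.

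Group means of Fabp4 were 6.13 ± 0.32 in wt-SetB, 6.77 ± 1.07 in myr-SetB and 7.20 ± 1.18 in mCherry (SD, n = 3). The difference from mCherry was -1.06 ± 0.64 (SE) in wt-SetB, with a 95% interval of -2.52 to 0.40 and a limma adjusted p of 0.452. For myr-SetB it was -0.43 ± 0.64, with an interval of -1.89 to 1.03 and an adjusted p of 0.719. Between the forms, myr-SetB minus wt-SetB was 0.63 ± 0.64, with an interval of -0.83 to 2.10 and an adjusted p of 1. No comparison passed the test, and the intervals leave room for changes of more than 1 log2 unit. Single arrays set these values. Without mCherry replicate 3 they were -0.41 for wt-SetB and 0.23 for myr-SetB, each minus mCherry. Without myr-SetB replicate 3 the value of myr-SetB minus mCherry was -1.03 and that of myr-SetB minus wt-SetB 0.03, and without myr-SetB replicate 1 they were -0.02 and 1.04.

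Markers of mural and macrophage cells were set beside Fabp4 on each array, and those of other cell types as ranges of each group. Mural and fibroblast markers, which are not of the cells named above for Fabp4, with clusters for 8 of 9 genes, had mean log2 intensities of 6.51, 6.92 and 7.15 in wt-SetB, 6.68, 6.88 and 7.19 in myr-SetB, and 6.28, 7.12 and 7.41 in mCherry. Their summed intensity was 890 to 1590 in wt-SetB, 965 to 1747 in myr-SetB and 725 to 2113 in mCherry, and replicate 3 was the highest in each group. Dcn and Lum of that list were at or below the odorant receptor median on every array, while Pdgfrb, a receptor of pericytes, was 7.33, 8.37 and 8.86 in wt-SetB, 7.25, 8.60 and 9.19 in myr-SetB, and 7.06, 8.92 and 9.45 in mCherry. The arrays with high Fabp4 had high Pdgfrb, but wt-SetB replicate 3 and mCherry replicate 2 had Pdgfrb at 8.86 and 8.92 with Fabp4 at 5.96 and 6.22.

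Endothelial markers (6 of 8 genes) had summed intensities of 496 to 561 in wt-SetB, 550 to 567 in myr-SetB and 400 to 589 in mCherry. For macrophage and microglial markers (11 of 11 genes) they were 1565 to 2738, 1543 to 2467 and 1460 to 2438 in the same order. Their mean log2 intensity was 6.93, 7.70 and 7.48 in wt-SetB, 6.94, 7.45 and 7.56 in myr-SetB, and 6.89, 7.32 and 7.51 in mCherry. Like Fabp4, that mean was highest on replicate 2 of wt-SetB and on replicate 3 of myr-SetB and of mCherry. In mCherry it was lowest on replicate 1, whereas Fabp4 was lowest on replicate 2. Adipocyte markers (4 of 4 genes) had summed intensities of 424 to 461 in wt-SetB, 426 to 476 in myr-SetB and 353 to 387 in mCherry. Both Set-β groups were above mCherry there, while Fabp4 was not. Adipoq, Plin1 and Lep were below the odorant receptor 90th percentile on every array. Cidec was below it on every array but myr-SetB replicate 3, at 6.99 against 6.98. The adipocyte difference thus lies within the range of the background mark. None of the genes of these 3 lists was at or below the odorant receptor median on every array. The part of other cells in the Fabp4 values was not tested.

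**Figure D3:**
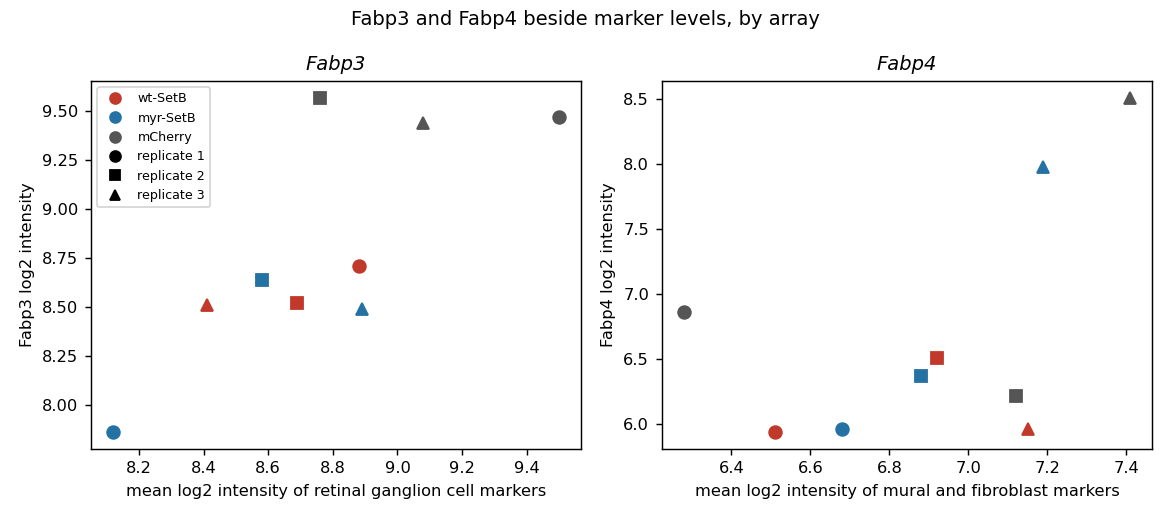
Left, Fabp3 against the mean log2 intensity of 12 ganglion cell markers on each array. Right, Fabp4 against the mean log2 intensity of 8 mural and fibroblast markers. Colours give the group and shapes the replicate number. Fabp3 is highest on mCherry replicate 2, whose ganglion cell marker mean of 8.76 lies within the range of the Set-β arrays, and Fabp4 is highest on replicate 3 of mCherry and of myr-SetB.

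Fabp7, the glial form, was near the mark of background on every array. Its log2 intensity was 5.86, 6.29 and 5.78 on the wt-SetB arrays, 6.43, 6.07 and 5.58 on the myr-SetB arrays, and 5.78, 5.92 and 5.52 on the mCherry arrays. All 3 groups overlapped. It stood between percentiles 24.4 and 42.9 of its array, and its mean of 5.91 was under the level filter, so it was not tested.

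The group means of Fabp7 were 5.98 ± 0.27 in wt-SetB, 6.03 ± 0.43 in myr-SetB and 5.74 ± 0.20 in mCherry (SD, n = 3). A fit without the filter gave differences from mCherry of 0.24 ± 0.25 (SE) in wt-SetB and 0.29 ± 0.25 in myr-SetB, with 95% intervals of -0.33 to 0.80 and -0.28 to 0.85, and 0.05 ± 0.25 for myr-SetB minus wt-SetB. Markers of Müller glia, astrocytes and progenitors had clusters for 14 of 15 genes, with 6 under the level filter. Their summed intensity was 2340 to 5306 in wt-SetB, 2336 to 6167 in myr-SetB and 3385 to 6955 in mCherry. Within that sum Vim alone ran from 229 to 3532, 335 to 4211 and 387 to 4487 in the same order. The mean log2 intensity of the list, in which each gene counts alike, was 6.86 to 7.23, 7.08 to 7.22 and 7.03 to 7.39. In log2 units Vim, an intermediate filament gene that is not restricted to glia, was 7.84, 11.15 and 11.79 in wt-SetB, 8.39, 11.42 and 12.04 in myr-SetB, and 8.60, 11.59 and 12.13 in mCherry. Gfap, the intermediate filament of astrocytes, was between 5.96 and 6.47 on all arrays. Fabp7 was lowest on replicate 3 in each group, the array on which Vim was highest.

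None of the other intracellular lipid binding proteins passed the test. Of 12 genes listed, 10 had a cluster and 3 passed the level filter, Rbp2, Crabp1 and Crabp2, of which 0 reached an adjusted or an unadjusted p under 0.05 in any comparison by limma. The filter kept clusters by their level, so these 3 do not stand for the family. All clusters tested had median differences from mCherry of -0.18 in wt-SetB and -0.16 in myr-SetB, and those with 1 symbol -0.29 and -0.26. The median difference of these 3 genes was -0.09 in wt-SetB and -0.03 in myr-SetB. For wt-SetB the sign turned with quantile normalization (0.09) and cyclic loess (0.10), and for myr-SetB the values were 0.05 and 0.00.

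Crabp2, a carrier of retinoic acid, was 7.13, 6.76 and 6.35 on the wt-SetB arrays, 7.35, 7.32 and 7.97 on the myr-SetB arrays, and 8.56, 7.22 and 6.95 on the mCherry arrays. The arrays of myr-SetB lay above those of wt-SetB, as in 2.63% of all tested clusters, and mCherry overlapped with both. Myr-SetB minus wt-SetB was 0.80 ± 0.42 (SE), with a limma adjusted p of 1. Wt-SetB minus mCherry was -0.83 ± 0.42, with an adjusted p of 0.447, and was -0.33 without mCherry replicate 1. Myr-SetB minus mCherry was -0.03 ± 0.42 with an adjusted p of 0.974, and turned to 0.11 with quantile normalization and 0.06 with cyclic loess.

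Crabp1, the other cellular retinoic acid carrier, had 7.67 ± 0.58 in wt-SetB, 7.55 ± 0.34 in myr-SetB and 7.76 ± 0.12 in mCherry (SD, n = 3), which overlapped. Rbp2, a retinol carrier of the intestine, had 6.82 ± 0.13 in wt-SetB, 6.75 ± 0.17 in myr-SetB and 6.72 ± 0.07 in mCherry. Under the filter were the liver form Fabp1, the intestinal form Fabp2, the ileal bile acid carrier Fabp6, the testis form Fabp9, Fabp12, the retinol carrier Rbp7 and Pmp2, a peripheral myelin protein. Their means over the 9 arrays ran between 3.89 for Fabp2 and 6.55 for Pmp2. Fabp4, Fabp9, Fabp12 and Pmp2 are neighbours in RefSeq, and the replicate 3 arrays with high Fabp4 did not show high Fabp9 or Pmp2, which were 4.63 and 6.35 in myr-SetB replicate 3 and 5.2 and 6.57 in mCherry replicate 3. Fabp12 was 6.16 and 5.77 on the same arrays. Among the genes under the filter, the myr-SetB arrays lay above the wt-SetB arrays for Fabp1, Fabp6 and Fabp12. The share of clusters under the filter with this order was not counted, so no pattern of the family is read from them. Fabp6 was 5.66, 5.60 and 5.22 in myr-SetB and 4.93, 4.94 and 5.04 in wt-SetB, a difference of 0.52 ± 0.20 (SE) in the fit without the filter, and below the odorant receptor median on each of these arrays.

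**Figure D4:**
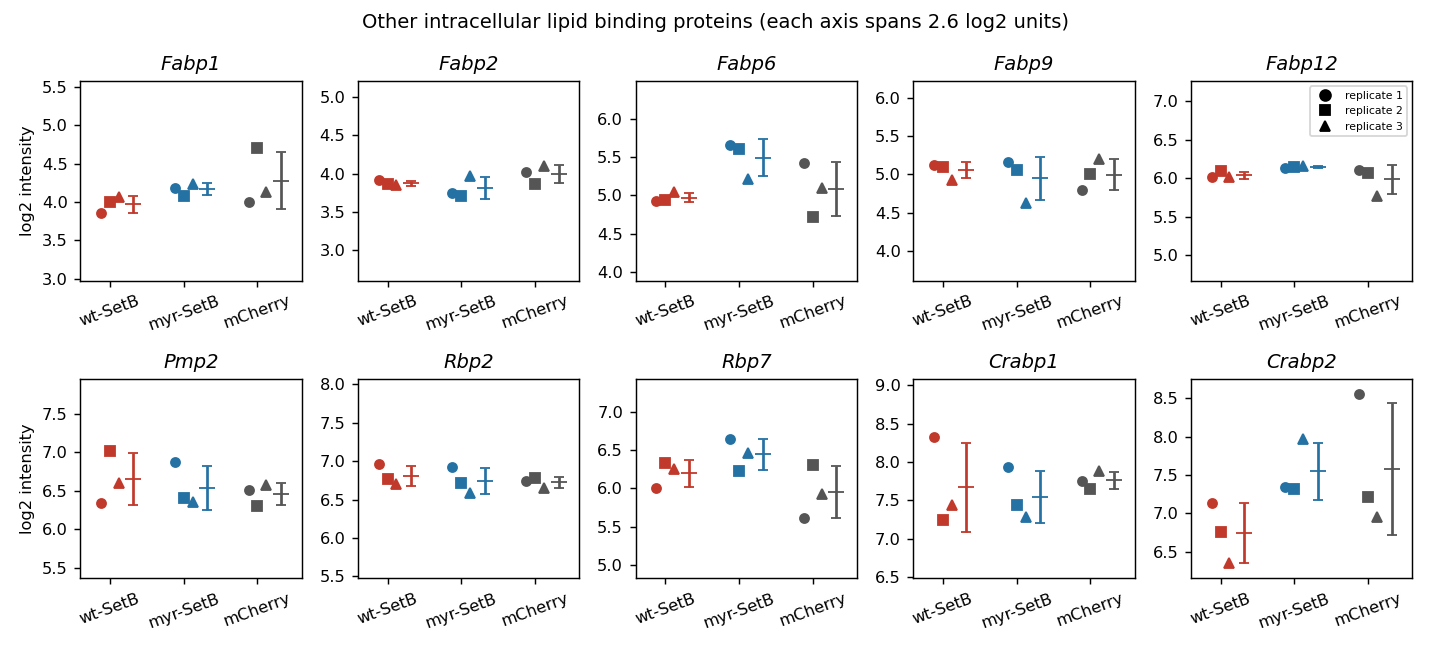
Log2 intensity of 10 other intracellular lipid binding protein genes on each array, by group, with marker shape for the replicate number and bars for the group mean ± SD (n = 3); each vertical axis spans the same number of log2 units at its own level. The myr-SetB arrays lie above the wt-SetB arrays in 4 panels, Fabp1, Fabp6, Fabp12 and Crabp2 (7.32 to 7.97 against 6.35 to 7.13), and those of Fabp12 also above the mCherry arrays. Of these only Crabp2 passed the level filter, and the share of clusters under the filter with such an order was not counted.

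Genes that take up fatty acids and activate them with coenzyme A, the step that follows carriage, were lower than in mCherry for most members in both Set-β groups, and none passed limma's adjusted p. Of 18 genes 16 had a cluster and 11 were tested. In wt-SetB 10 of 11 were lower than in mCherry, 1 with an unadjusted p under 0.05 (7.13% of all tested clusters were such lower calls), and their median difference was -0.36, against -0.29 for all tested clusters with 1 symbol. In myr-SetB 9 of 11 were lower, 1 with an unadjusted p under 0.05 (6.92% of all), and the median was -0.38 against -0.26. Single calls are near those shares, which are over all tested clusters, whereas the medians set beside the lists are of clusters with 1 symbol. With quantile normalization the medians were -0.18 and -0.27. The gene with the unadjusted p in wt-SetB was Acbd6, which binds acyl-coenzyme A, at 7.15 ± 0.31 in wt-SetB and 7.97 ± 0.55 in mCherry (SD, n = 3), a difference of -0.82 ± 0.33 (SE). In myr-SetB it was Acsl4.

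Acsl4, the ligase that activates arachidonic acid, was 8.48, 8.45 and 8.16 in wt-SetB, 7.09, 8.0 and 9.19 in myr-SetB, and 9.54, 8.79 and 9.08 in mCherry. The wt-SetB arrays lay below the mCherry arrays, whereas myr-SetB ranged across both. The differences from mCherry were -0.77 ± 0.46 in wt-SetB and -1.04 ± 0.46 in myr-SetB. For myr-SetB the value was -0.54 without myr-SetB replicate 1 and -1.59 without myr-SetB replicate 3.

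Carnitine shuttle and mitochondrial beta-oxidation genes, which burn fatty acids, had clusters for 23 of 23 genes, all tested, with 0 passing the adjusted p. In wt-SetB 17 were lower, 5 higher and 1 at 0.00 relative to mCherry, 1 of the lower with an unadjusted p under 0.05 (7.13% of all tested clusters), and the median was -0.23 against -0.29 for all tested clusters with 1 symbol. Of the 23 genes 9 lay below that general median. In myr-SetB 18 were lower and 5 higher, 0 with an unadjusted p under 0.05, and the median was -0.23 against -0.26. Quantile normalization gave medians of -0.18 and -0.07, and cyclic loess -0.19 and -0.02. In wt-SetB 9 of 23 genes had every array below every mCherry array, where all tested clusters gave 26.4%, and in myr-SetB it was 0 of 23, where they gave 6.85%. The shares among clusters with 1 symbol were not counted.

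Etfdh, which passes electrons from beta-oxidation to the respiratory chain, was the gene with the unadjusted p in wt-SetB. It was 7.08, 7.41 and 7.17 in wt-SetB, 7.07, 7.64 and 8.18 in myr-SetB, and 7.96, 7.96 and 7.82 in mCherry. Wt-SetB minus mCherry was -0.69 ± 0.26 (SE), and leaving out 1 array gave -0.79 to -0.62. Etfa, its electron donor's alpha subunit, had the largest difference of the list in wt-SetB, -1.02 ± 0.47, and Hadhb, of the trifunctional protein, had -0.86 ± 0.40, each with an adjusted p of 0.447.

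Fatty acid synthesis, elongation and desaturation genes had the lowest median of the 6 lists in both comparisons with mCherry. Of 19 genes 17 had a cluster and 16 were tested, with 15 lower and 1 higher in wt-SetB and the same counts in myr-SetB. The medians were -0.53 in wt-SetB and -0.47 in myr-SetB, against -0.29 and -0.26 for all tested clusters with 1 symbol, and became -0.28 and -0.23 after quantile normalization or -0.26 and -0.21 after cyclic loess. None passed the adjusted p. At an unadjusted p under 0.05 there were 3 lower genes in wt-SetB and 1 in myr-SetB, where lower calls made up 7.13% and 6.92% of all tested clusters. Every Set-β array lay below every mCherry array in 7 of 16 genes in wt-SetB and in 2 of 16 in myr-SetB, against 26.4% and 6.85% of all tested clusters. All tested clusters had medians of -0.18 and -0.16, less low than those with 1 symbol. The shares among clusters with 1 symbol were not counted, so no pattern is read from these counts.

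The 3 genes in wt-SetB were Hsd17b12, Tecr and Elovl4, the last also being the 1 gene in myr-SetB. Tecr and Elovl4 were named after their values were seen. Hsd17b12, the ketoacyl reductase of fatty acid elongation, was 8.41, 7.78 and 7.64 in wt-SetB, 7.56, 8.04 and 8.84 in myr-SetB, and 9.13, 8.51 and 9.04 in mCherry. Its difference from mCherry was -0.95 ± 0.35 (SE) in wt-SetB and -0.75 ± 0.35 in myr-SetB, each with a limma adjusted p of 0.447, and the myr-SetB value was -0.45 without myr-SetB replicate 1. Elovl4, the elongase of very long chains that is mutated in a human macular dystrophy, had 7.36 ± 0.28 in wt-SetB, 7.39 ± 0.43 in myr-SetB and 8.01 ± 0.34 in mCherry (SD, n = 3). The differences were -0.66 ± 0.27 (SE) and -0.62 ± 0.27, the second being -0.38 without myr-SetB replicate 1. Tecr, the last enzyme of the elongation cycle, had 10.65 ± 0.25 in wt-SetB and 11.23 ± 0.48 in mCherry, and the difference of -0.58 ± 0.25 was -0.33 without mCherry replicate 1.

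Nuclear receptors that bind fatty acids or retinoids, with their coactivators, had 0 members past the adjusted p. All 13 genes had a cluster, 14 clusters in all, of which 7 were tested. In wt-SetB 6 were lower and 1 higher with a median of -0.17, and in myr-SetB 5 were lower and 2 higher with a median of -0.08. The medians of all tested clusters with 1 symbol were -0.29 and -0.26, and 0 of the 7 lay below them in either comparison. None had an unadjusted p under 0.05, and quantile normalization gave medians of -0.07 and -0.02. Ppard, a receptor to which fatty acid binding proteins deliver ligands, was 6.99, 7.03 and 7.02 in wt-SetB, 6.92, 7.02 and 7.17 in myr-SetB, and 7.29, 7.09 and 7.20 in mCherry by cluster 17753528. By its other cluster, 17757148, it was 6.80, 6.88 and 6.74 in wt-SetB, 6.69, 6.80 and 7.07 in myr-SetB, and 7.23, 6.59 and 6.88 in mCherry, where the groups overlapped. Ppara and Pparg were under the level filter.

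Lipid storage and lipolysis genes had clusters for 12 of 12, of which 9 were tested, with 7 lower and 2 higher in each Set-β group and 0 at an unadjusted p under 0.05. The medians were -0.16 in wt-SetB and -0.13 in myr-SetB, and -0.05 and -0.03 after quantile normalization. All tested clusters with 1 symbol had medians of -0.29 and -0.26 before it, and 3 of the 9 lay below these in each comparison. Plin2, which coats lipid droplets, was 7.79, 7.61 and 7.76 in wt-SetB, 6.70, 7.99 and 8.57 in myr-SetB, and 8.27, 7.84 and 9.12 in mCherry. Its differences from mCherry were -0.69 ± 0.47 (SE) in wt-SetB and -0.66 ± 0.47 in myr-SetB, with adjusted p of 0.469 and 0.481. They were -0.33 and -0.30 without mCherry replicate 3, and the second was -0.13 without myr-SetB replicate 1 and -1.07 without myr-SetB replicate 3.

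Between the forms of Set-β none of the tested members of these 6 lists had an unadjusted p under 0.05 by limma. Myr-SetB minus wt-SetB had medians of 0.03 for uptake and activation, 0.07 for beta-oxidation, 0.11 for nuclear receptors, 0.03 for synthesis and elongation, 0.01 for storage and -0.07 for the other lipid binding proteins, against 0.01 for all clusters tested.

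**Figure D5:**
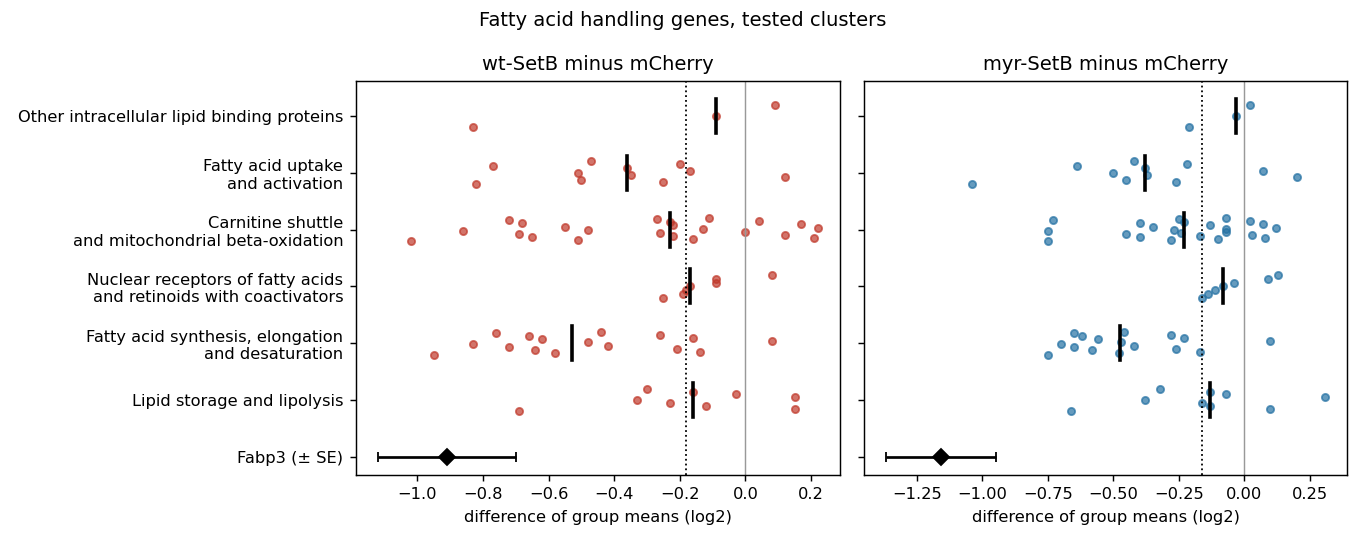
Differences from mCherry in log2 units for the tested clusters of 6 lists of fatty acid genes in wt-SetB (left) and myr-SetB (right). Points are clusters, short vertical bars the list medians, the dotted line the median of all clusters tested (-0.18 and -0.16), and the diamond Fabp3 ± SE. The medians of tested clusters with 1 symbol, -0.29 and -0.26, are not drawn. Fabp3, at -0.91 and -1.16, was chosen for its low value and lies beyond the list medians, and in wt-SetB the list members Etfa (-1.02) and Hsd17b12 (-0.95) lie lower still.

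The genes whose pattern over the 9 arrays was most like that of Fabp3 were sought among 10713 tested clusters with 1 symbol. The 5 highest Pearson correlations were those of Zfp18 (0.973), a zinc finger gene, Abhd16a (0.963), a phosphatidylserine lipase, Ddhd1 (0.959), a phospholipase that acts on phosphatidic acid, Ikbkb (0.957), a kinase of the NF-kB pathway, and Nhlrc2 (0.951). In all 32 clusters exceeded 0.9. The arrays share the signal range differences given above, and Fabp3 differs between the groups, so these values describe a shared order of arrays. After quantile normalization the 5 highest were Camkmt (0.967), Nup42 (0.955), Ddhd1 (0.934), Zfp18 (0.932) and Zcchc14 (0.920), so that Ddhd1 and Zfp18 were in both sets. Ddhd1 was 7.85, 7.85 and 7.69 in wt-SetB, 7.45, 7.87 and 7.83 in myr-SetB, and 8.44, 8.31 and 8.13 in mCherry, and like Fabp3 it was lowest on myr-SetB replicate 1.

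After the group means were subtracted, the genes most like Fabp3 were Ppp1r37 (0.947), Dnajc18 (0.946), Arv1 (0.939), Plek (0.935) and Tor1aip2 (0.933), with 18 clusters over 0.9. On myr-SetB replicate 1 Fabp3 and each of these 5 genes had their lowest value. The clusters most like Fabp7 were Rnf183 (0.948), Or10d5 (0.938), Or7a35 (0.935), Mir674 (0.935) and Tmprss13 (0.932), among them 2 odorant receptors of the kind used as the mark of background. For Fabp4, a search added after the data were seen gave Aldh5a1 (0.979), Ltbp1 (0.978), Rap1b (0.978, with identical values in 2 clusters) and Eif2ak1 (0.974), with 121 clusters over 0.9, and each of these 4 genes was highest on mCherry replicate 3.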

How the data were processed

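Amplified cDNA of each RNA sample was hybridised to Affymetrix Rat Gene 2.0 ST arrays, per the labels. The authors computed RMA intensity values, per the submitters' processing notes with Affymetrix Expression Console (no versions given), and normalized each sample to its median. The deposited values are intensity on a linear scale, with a median of 100 on each of 9 arrays. That step leaves each array's spread free. There is no read depth on arrays, so the number of arrays limits the precision. Of 36685 clusters, the platform annotation gave 18511 with 1 symbol, 575 with several and 17599 with none, and 18394 of its gene identifiers matched RefSeq (GRCr8).

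The deposited intensities were log2-transformed and fitted in R 4.3.3 with limma 3.58.1 (group means of 9 arrays, 6 residual and 2.82 prior degrees of freedom, two-sided, Benjamini-Hochberg). Clusters with a mean under the median of cluster means (6.65) were left out, which kept 18343. Fabp7, under the filter, was read from an unfiltered fit. The fit was tested on simulated data. Intervals are 95%.

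The members and gene lists were chosen with earlier results of these data known. Up to 4 tested members a list were eligible for naming, those with the largest absolute difference. The 5 most similar clusters were those of highest Pearson correlation. Marker lists were of ganglion, amacrine and horizontal, photoreceptor and bipolar, glial, endothelial, macrophage, mural, adipocyte and muscle cells. Alternatives were quantile and cyclic loess normalization, other level filters, a fit of 2 groups, a trended eBayes, array weights, a replicate block and leaving out each array.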

Additional observations from a re-analysis of the deposited data

How the results depend on the processing

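Fabp3 was lower than in mCherry in both Set-β groups under each of 18 alternatives, from -0.97 to -0.55 in wt-SetB and from -1.31 to -0.75 in myr-SetB. This lends no support, since Fabp3 was chosen for being lower. Every Set-β array lay below every mCherry array, so leaving out 1 array could not turn the sign. The level filters, the fit of 2 groups, the trended eBayes and the replicate block cannot move a difference of group means. The setting that takes the difference relative to the median of all clusters tested was chosen after seeing the data and gave -0.73 and -1.0. No cluster passed an adjusted p under 0.05 in any comparison under any alternative. With array weights (gene by gene, since the default estimate did not converge) Fabp3 in myr-SetB was -0.93 from mCherry and Fabp4 -1.0. The values of Fabp4 and Fabp7 turned sign where 1 array was left out. For Fabp4 in myr-SetB minus mCherry they ran from -1.03 to 0.23, for Fabp7 in myr-SetB minus wt-SetB from -0.15 to 0.27, with -0.01 and -0.05 without wt-SetB replicates 1 and 3. Crabp2 in myr-SetB minus mCherry was -0.03 and turned to 0.11 with quantile normalization, 0.06 with cyclic loess, 0.06 with array weights, 0.46 without mCherry replicate 1, and 0.07 and 0.08 without myr-SetB replicates 1 and 2, within a range of -0.34 to 0.46 leaving out 1 array. The signal range of myr-SetB minus wt-SetB, -0.00174 over all clusters, was 0.085 over tested clusters only. The cause was not tested. Counts of clusters at an unadjusted p under 0.05 moved with the filter, the arrays fitted and the array weights. The 1865 of wt-SetB against mCherry became 3043 without any level filter, 885 when the filter stood at the 75th percentile, 4262 with only these 2 groups, 4688 with array weights, and 880 to 3862 leaving out 1 array. The 1796 of myr-SetB against mCherry became 2986, 842, 891 and 3801 in the same order, and 642 to 6141 leaving out 1 array. The 208 of myr-SetB against wt-SetB became 749 with no filter, 70 with the stricter filter, 1055 with array weights, and 182 to 833 leaving out 1 array. Replicate numbers were not used as pairs, since the labels do not say that a number marks a shared litter or day. Deviations from the group means correlated above 0.1 in 5 of 9 pairs with the same number (-0.069 to 0.383, 8 above 0). Of 18 pairs with different numbers (-0.398 to 0.365) 11 were below 0, and 5 of 9 arrays correlated best with an array of their own number. Vim was lowest on replicate 1 in every group. Every replicate number is present in each group, so a replicate block cannot change a difference of group means. The differences of Fabp3 thus stayed at -0.91, -1.16 and -0.25 by design. The block gave counts of 1937, 1754 and 251 and changed no call. Signal over background limits Fabp7 and most arrays of Fabp4.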
